A study of Homo sapiens with 6 samples.

Results

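The genes described here are the expressed antisense RNAs of ME180 cells. A gene belonged to the set if the authors' gene table gave its biotype as antisense RNA, if its mean over the 6 libraries was at least 1 FPKM (a count of sequenced fragments divided by the length of the gene and by the size of the library) and if it lay on neither X nor Y. Antisense genes named as hosts of small nucleolar RNAs (SNHG genes, GAS5 and ZFAS1) were left out. This gave 369 of the 58302 genes in the table and 369 of its 5517 antisense genes of any level. Of 379 antisense genes at or above the level threshold, 5 were left out for their chromosome and 5 for their name. The level over all 6 libraries chose the members, so levels are given as a description. The change between groups was not a criterion of the rule. A gene near the threshold could still pass through the group in which it was higher, and the counts of rises and falls below include such members.

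ME180 is an established line of epithelial cells from a human cervical carcinoma. Cells were transfected with an siRNA against SGK1 (siSGK1) or with a control siRNA (siControl), and polyA RNA was taken 48 h later and sequenced. Each group has 3 libraries, numbered 2, 3 and 4, which the series describes as biological repeats. Both groups are the same line, both received an siRNA, and 1 siRNA condition stands for the knockdown.

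An antisense RNA is transcribed from the strand opposite another gene, and may start near that gene's promoter and run the other way, run into its 3′ end, or lie inside it. Some are made as by-products of promoters that fire in both directions and are degraded in the nucleus by the RNA exosome. Others are spliced, polyadenylated and stable. Individual antisense RNAs are known to regulate the gene they overlap, through chromatin, through interference between the polymerases, or by pairing with its RNA, and several at the HOX and tumour-related loci have been studied in cancer cells.

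The targeted transcript was lower in the siSGK1 libraries. SGK1 had 1.58, 1.70 and 1.81 FPKM in siSGK1 and 3.91, 4.27 and 4.17 FPKM in siControl, 41.2% of the siControl mean. The groups did not overlap (log2 change -1.07, SE 0.07, limma adjusted p = 1.88e-05; exact permutation test p = 0.1, the smallest that 3 against 3 libraries allow). The 9 epithelial markers averaged 36.8 to 2920 FPKM in siSGK1 and 36.9 to 3961 FPKM in siControl. Of these KRT5, KRT8, KRT14, KRT17 and KRT19 fell, most of all KRT14 (541 ± 54.8 FPKM in siSGK1 and 1388 ± 28.6 FPKM in siControl, SD, n = 3 each, log2 change -1.36, adjusted p = 9.28e-06), while EPCAM, CDH1, TP63 and KRT18 did not pass. Of 7 markers of other cell types only COL1A1 was above 0.03 FPKM in either group (5.37 FPKM in siSGK1 and 4.93 FPKM in siControl). Libraries held 28405647 to 35242643 assigned reads in siSGK1 and 27262794 to 27874948 in siControl, so the siSGK1 libraries were the deeper ones. Mitochondrial genes took 3.38 to 3.66% of reads in siSGK1 and 4.16 to 4.40% in siControl, and the part of this difference and of the keratins in the results below was not tested.

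Most members were low, and depth limits what can be seen of them. The median level was 2.05 FPKM, against 6.61 FPKM for protein-coding genes past the same threshold. There were 181 members under 2 FPKM, 58 at 5 FPKM or more and 19 at 10 FPKM or more. The median member had 64.3 reads per library, 33 members had fewer than 20 and 134 had at least 100. The group mean reached 1 FPKM in both groups for 321 members, only in siSGK1 for 31 and only in siControl for 17. The 3 members just inside the threshold were AL158151.1 at 1.00 FPKM and AC139149.1 and AC106786.1 at 1.001 FPKM each. The 3 just outside were AP001363.1 at 0.998 FPKM, AL356481.1 at 0.997 FPKM and AC012313.6 at 0.992 FPKM.

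Positions in the table were those of GRCh38, and they describe what lies opposite each member. Of the 369 members, 299 overlapped a gene on the other strand, and for 292 of these the partner was protein-coding. Another 40 overlapped none but started within 1000 bases of the start of a gene running the other way, here called divergent. The remaining 30 had neither, so for them the name antisense rests on the table's biotype alone. Exon positions were available for 368 members, of which 221 shared exon bases with another gene on either strand. In those 221 the median shared part was 17.5% of exon bases.

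How shared bases were counted bears on every partly shared member. Of 315 antisense genes whose exons lie wholly inside exons of the other strand, 313 (99.4%) had 0 reads in all 6 libraries. Among 2323 antisense genes with no such overlap, 944 (40.6%) had 0. Reads in shared bases were thus mostly absent from the counts of these genes, while gene length includes those bases, so the FPKM of a member that shares exon bases with the other strand may understate its level. No strand setting is stated for the counting. Whether a read came from the member's strand or from the other strand is thus unknown for every member. Reads from unspliced RNA of the partner cannot be told apart from reads of a member that lies in its intron. The same holds for any partner RNA that runs past its annotated start or end into a member, divergent members included.

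Antisense RNAs were higher in siSGK1 more often than lower. In limma's test across all 11945 genes with a mean of at least 1 FPKM, 95 members rose (25.7%), 26 fell (7.05%) and 248 did not pass an adjusted p of 0.05. Over all tested genes 17.9% rose, 22.7% fell and 40.6% changed in either direction. The median log2 change was 0.14 for the members and -0.01 for all tested genes, and 249 members had a positive change. In bulk RNA, fewer cells that carry an RNA and less of it per cell cannot be told apart. All 3 siSGK1 libraries lay above all 3 siControl libraries for 116 members, or 31.4%, against 24.6% of all tested genes. All 3 lay below for 33 members, or 8.94%, against 28.8%. Their summed level was 1294, 1254 and 1297 FPKM in siSGK1 and 1178, 1222 and 1189 FPKM in siControl. Members took 0.179% ± 0.005 of reads in siSGK1 and 0.149% ± 0.002 in siControl (SD, n = 3 each), and the groups overlapped in neither quantity. The 2 quantities differ in scaling, since a share of reads is scaled to read totals. Under that scaling the median log2 change of all tested genes was 0.12 in place of -0.01.

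**Figure D1:**
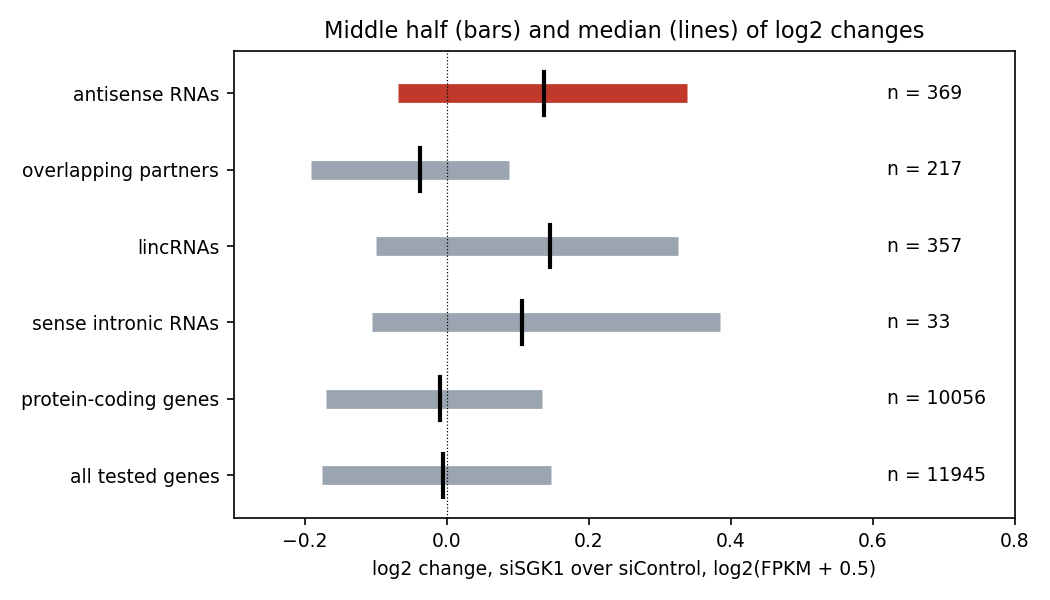
Log2 change, siSGK1 over siControl on the log2(FPKM + 0.5) scale, for 6 classes of tested genes; bars span the first to the third quartile, black lines mark medians and n is the number of genes. The antisense RNAs have a median of 0.14, close to the 0.15 of lincRNAs, and the protein-coding genes one of -0.01.

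The changes were small, and antisense RNAs shared this shift with other noncoding classes. The 95 that rose did so by 1.15-fold to 2.99-fold, with a median of 1.45-fold, and 9 reached 2-fold. The 26 that fell were 1.16-fold to 2.69-fold lower, with a median of 1.46-fold, and 2 reached 2-fold. Of 357 lincRNAs, which lie between genes, 97 rose and 37 fell, with a median of 0.15, and of 33 sense intronic RNAs 8 rose and 2 fell. The median of the members was above that of protein-coding genes of like level. Among 181 members under 2 FPKM 36 rose (19.9%) and 6 fell (3.315%), with a median of 0.10. The 1564 protein-coding genes of that level had a median of 0.03, and 13.55% rose and 13.81% fell. At 2 to 5 FPKM the medians were 0.17 for 130 members and 0.02 for 2613 protein-coding genes. There 32.3% of members rose and 6.15% fell, beside 18.5% and 18.1% of protein-coding genes. At 5 FPKM or more the medians were 0.13 for 58 members, of which 17 rose and 12 fell, and -0.04 for 5879 protein-coding genes. The shares of members were 29.3% and 20.7%, beside 18.85% and 29.1% of protein-coding genes.

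The split depends on how libraries are scaled. The deposited values carry a scaling that leaves the median gene near 0, while scaling to total reads moved the median of all genes to 0.12 and scaling to TPM moved it to 0.18. With total reads 149 members rose and 15 fell, and with TPM 172 rose and 12 fell. Under TPM the share that rose was 46.6% of members and 47.3% of all tested genes, so that share no longer stood above the rest. With voom on recovered reads, scaled to read totals, it was 35.8% of members and 39.3% of all tested genes, below the rest. The share that fell was 3.25% of members and 9.80% of all tested genes with TPM, and 2.44% and 13.4% with voom. The median of the members lay above the median of all genes by 0.14 with the deposited values, by 0.13 with total reads and by 0.12 with TPM.

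The largest rises were in little-studied members at low levels. AL662791.4 (ENSG00000244349, chr6:28986800-28988536, plus strand) had 3.54, 3.33 and 3.88 FPKM in siSGK1 and 1.08, 1.46 and 1.05 FPKM in siControl, 2.99-fold higher (log2 change 1.27, SE 0.10, adjusted p = 5.05e-05). HCG15, which overlaps AL662791.4 on the same strand of the HLA region of chromosome 6, had 1.78, 1.46 and 1.98 FPKM in siSGK1 and 1.00, 0.82 and 0.75 FPKM in siControl (log2 change 0.72, adjusted p = 0.00142). In both genes every siSGK1 library was above every siControl library, and since they overlap they are not independent of each other. HMGA1P4 carries the name of a pseudogene of HMGA1, so reads of both may be mixed and its value is uncertain. It had 6.11, 7.50 and 5.88 FPKM in siSGK1 and 2.62, 3.35 and 2.00 FPKM in siControl (log2 change 1.16, SE 0.15, adjusted p = 0.000512).

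LINC01063 (ENSG00000232065, chr3:196631498-196632587, minus strand) had 5.08, 6.68 and 5.88 FPKM in siSGK1 and 2.96, 2.77 and 3.30 FPKM in siControl. The groups were well apart (log2 change 0.86, SE 0.10, adjusted p = 0.000279). Its annotated start region is shown because LINC01063 rose most among the members whose RefSeq window could be shown (GRCh38.p14, chr3:196632538-196632837, minus strand, 250 bases before to 50 after the start). Capitals mark GGGCGG, the core of a GC box, in either orientation, of which there are 3.
LINC01063: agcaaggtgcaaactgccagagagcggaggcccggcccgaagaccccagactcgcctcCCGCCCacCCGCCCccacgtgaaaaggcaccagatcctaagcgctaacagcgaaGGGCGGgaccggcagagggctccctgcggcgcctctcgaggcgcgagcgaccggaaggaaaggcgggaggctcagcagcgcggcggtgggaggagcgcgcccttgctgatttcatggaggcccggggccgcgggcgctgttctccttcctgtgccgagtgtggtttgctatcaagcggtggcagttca

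The other large rises lay opposite protein-coding genes. ENO1-AS1 starts inside ENO1, which encodes the glycolytic enzyme enolase, and had 2.16, 2.65 and 1.68 FPKM in siSGK1 and 1.00, 0.59 and 1.06 FPKM in siControl (log2 change 0.95, SE 0.17, adjusted p = 0.00271). It rests on 7 to 40 reads per library. AC011247.2, inside HNRNPLL (a splicing regulator), was 2.62-fold higher on 2 to 13 reads. AC137630.1 at ARIH2 (a ubiquitin ligase) and BFSP2-AS1 inside BFSP2 (a lens filament protein) were each 2.18-fold higher. AC062017.1 at HDAC4, a histone deacetylase, was 2.00-fold higher, while HDAC4 was below the level tested. AC011444.1 at RFX2, a transcription factor of ciliated cells, was 1.92-fold higher. AC108097.1 at DYNLRB2, a dynein light chain, was 2.22-fold higher but did not pass without siSGK1 replicate 3 (adjusted p between 0.002 and 0.097 over the alternatives). ENO1-AS1, AC011247.2, AC137630.1, BFSP2-AS1, AC108097.1 and HCG15 had siControl means under 1 FPKM. They passed the level threshold only through siSGK1.

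**Figure D2:**
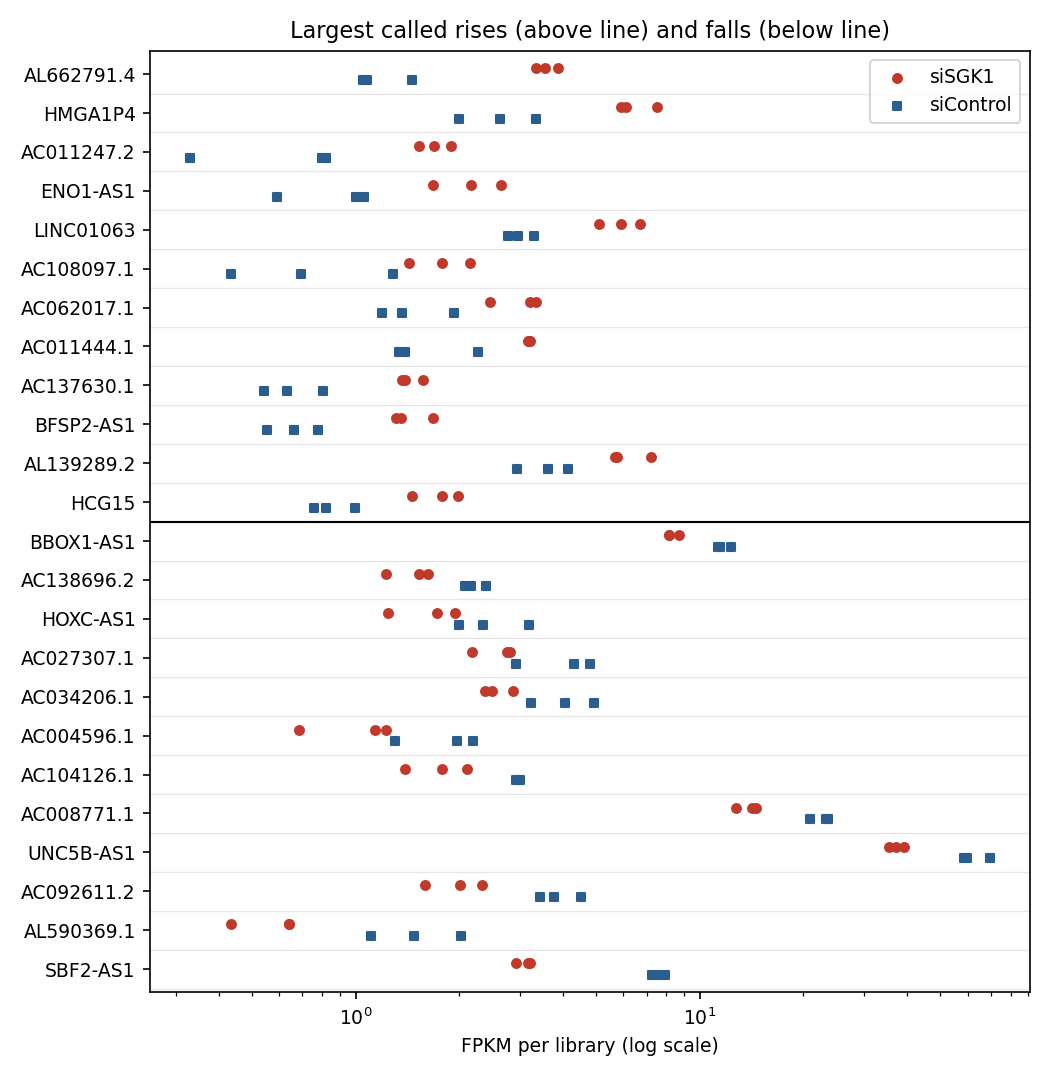
FPKM in each library, on a log axis, for the 12 largest rises (above the black line) and 12 largest falls (below it) among members that passed the test; circles are the 3 siSGK1 libraries and squares the 3 siControl libraries. In all 24 rows the groups do not overlap, and they come closest at HOXC-AS1, where the highest siSGK1 library has 1.94 FPKM and the lowest siControl library 2.00 FPKM.

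The falls held the highest and some of the best studied members. SBF2-AS1 (ENSG00000246273, chr11:9758292-9811319, plus strand), a long RNA that has been studied in several carcinomas, had 3.17, 2.92 and 3.22 FPKM in siSGK1 and 7.28, 7.94 and 7.60 FPKM in siControl. Every siSGK1 library was below every siControl library. The log2 change was -1.17 (SE 0.06, adjusted p = 8.59e-06). Its partner SBF2, a myotubularin-family gene on the other strand whose 3′ end it runs into, had 1.75, 1.93 and 1.73 FPKM in siSGK1 and 1.31, 1.49 and 1.36 FPKM in siControl, and rose (log2 change 0.29, adjusted p = 0.0191). Exons of the other strand hold 32.2% of the exon bases of SBF2-AS1. Its RefSeq start region (GRCh38.p14, chr11:9758043-9758342, plus strand) is shown as that of the largest fall on the log2(FPKM + 0.5) scale, with 2 copies of GGGCGG in capitals.
SBF2-AS1: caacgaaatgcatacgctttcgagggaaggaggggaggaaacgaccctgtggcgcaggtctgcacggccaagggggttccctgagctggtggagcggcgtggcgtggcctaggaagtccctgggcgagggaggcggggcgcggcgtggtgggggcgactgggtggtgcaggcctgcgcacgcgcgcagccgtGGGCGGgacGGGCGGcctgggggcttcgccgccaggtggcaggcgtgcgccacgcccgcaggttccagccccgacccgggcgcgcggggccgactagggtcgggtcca

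UNC5B-AS1 (ENSG00000237512, chr10:71217224-71218228, minus strand) was the member with the highest level, a mean of 49.96 FPKM. It lies inside UNC5B, which encodes a receptor for the guidance factor netrin, and shares no exon base with it. UNC5B-AS1 had 37.2, 35.5 and 39.2 FPKM in siSGK1 and 59.9, 69.6 and 58.4 FPKM in siControl. The groups were far apart (log2 change -0.74, SE 0.07, adjusted p = 0.000126). UNC5B had 18.6, 15.8 and 18.7 FPKM in siSGK1 and 35.6, 32.6 and 33.3 FPKM in siControl, and fell too (log2 change -0.92, adjusted p = 4.11e-05). Its RefSeq start region (GRCh38.p14, chr10:71218179-71218478, minus strand) is shown because this is the member with most reads among those that fell with their partner. Capitals mark the letters of a TATA box (TATAAA) on the other strand, and GGGCGG is not in this window.
UNC5B-AS1: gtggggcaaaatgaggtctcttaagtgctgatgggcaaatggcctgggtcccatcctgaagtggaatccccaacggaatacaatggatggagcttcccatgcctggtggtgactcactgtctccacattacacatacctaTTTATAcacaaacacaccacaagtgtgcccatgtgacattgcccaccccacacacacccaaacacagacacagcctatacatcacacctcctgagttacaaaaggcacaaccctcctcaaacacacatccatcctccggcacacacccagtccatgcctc

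Among the other falls, AC008771.1 had 14.6, 14.2 and 12.8 FPKM in siSGK1 and 20.9, 23.6 and 23.3 FPKM in siControl (log2 change -0.69, adjusted p = 0.000133), while its partner FAM151B was below the level tested. BBOX1-AS1 had 8.11, 8.15 and 8.70 FPKM in siSGK1 and 12.3, 11.4 and 11.3 FPKM in siControl (log2 change -0.46, adjusted p = 0.000302). In both the 2 groups were clearly apart. AL590369.1, inside ASB6, was 2.69-fold lower on 6 to 25 reads. Its siSGK1 mean was under 1 FPKM, so it passed the level threshold only through siControl. AC092611.2 was 1.97-fold lower on 16 to 36 reads, with 69.7% of its exon bases shared with another gene on its own strand. AC104126.1, inside EPB41L4A, was 1.69-fold lower. AC034206.1 spans CXCL14, a chemokine gene, and both fell, by 0.56 and 0.49 on the log2 scale. AC138696.2 inside ZNF696 was 1.52-fold lower on 10 to 14 reads and did not pass with voom on recovered reads (adjusted p 0.00455 to 0.24 over the alternatives). Calls of 3 of these 12 falls rested on single libraries. HOXC-AS1 did not pass without siSGK1 replicate 2 or 4 or siControl replicate 3 or 4 (adjusted p 0.0228 to 0.18 over all alternatives). AC004596.1 at UBTF and AC027307.1 inside ADAMTSL5 did not pass without siSGK1 replicate 3 or siControl replicate 3 or 4 (adjusted p up to 0.137 and 0.134). HOXC-AS1 and AC027307.1 also did not pass with total-read or TPM scaling, with voom on recovered reads or without the filter on low values. AC004596.1 did not pass with that voom fit or without that filter either.

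Members higher in siSGK1 outnumbered those lower in every position relative to the other-strand gene. Of 116 head-to-head members, which overlap the start of their partner, 26 rose and 6 fell, with a median log2 change of 0.10. Of 68 tail-to-tail members, which overlap the partner's end, 24 rose and 5 fell, with a median of 0.14. Of 95 members inside their partner 20 rose and 12 fell, and of 20 that span it 7 rose and 1 fell. Of the 40 divergent members 12 rose and 0 fell in limma, with a median of 0.22, and 0 fell at an unadjusted p under 0.05 or with voom. Among the 30 with no such gene 6 rose and 2 fell. Members that share no exon base with another gene rose in 30 of 147 cases and fell in 9, and those that share some rose in 65 of 221 and fell in 17. Differences between these positions were not tested.

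**Figure D3:**
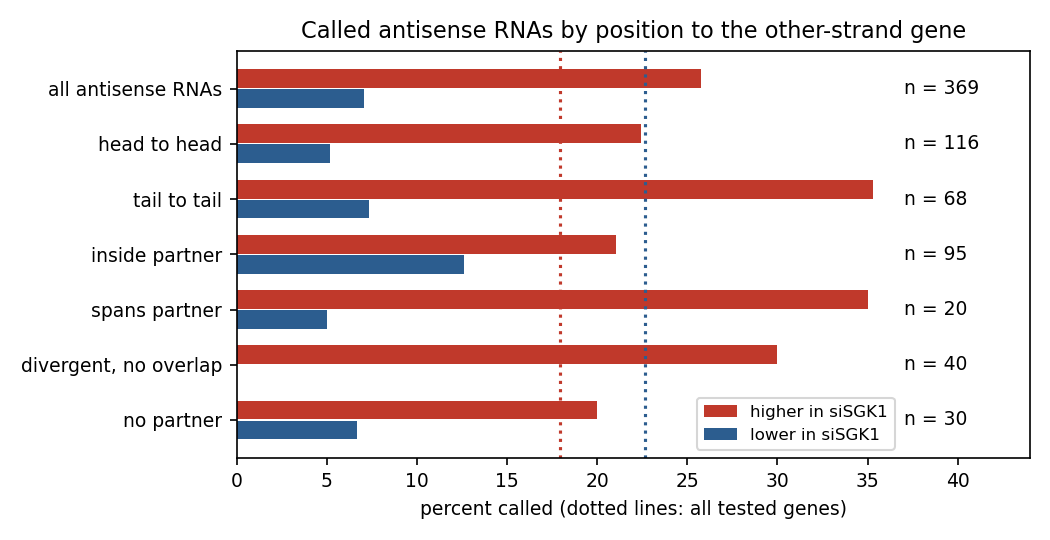
Percent of antisense RNAs that rose (upper bar) and fell (lower bar) in siSGK1, in all and by position relative to the gene on the other strand; dotted lines give 17.9% and 22.7%, the shares of all tested genes that rose and fell. In each position the upper bar is the longer one, and the lower bars are all left of the 22.7% line.

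The overlapping partners had a median change close to that of all tested genes. Both genes could be tested in 221 pairs with 217 partners, and the member had the lower level in 180 of the pairs. Of the 217 partners 28 rose (12.9%) and 59 fell (27.2%), with a median log2 change of -0.04, beside 17.9% and 22.7% of all tested genes and 17.9% and 23.9% of protein-coding genes. The change of the member minus that of its partner, taken within each library and tested with limma over all 275 pairs of an antisense gene and an overlapping gene, was higher in siSGK1 for 42 of the 221 member pairs and lower for 10. These are 19.0% and 4.52%, and the shares over all 275 pairs, most of them the same pairs, were 17.8% and 3.64%. The count of higher pairs was 24 without siControl replicate 2 and 26 without siSGK1 replicate 4. The median difference was 0.15, positive in 149 pairs.

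Changes of the 2 genes of a pair had the same sign in 125 of 221 pairs (56.6%), and their correlation across pairs was weak (Pearson r 0.18, Spearman rho 0.18, n = 221 pairs measured in the same libraries and partly in the same bases). Both genes rose in 8 pairs and both fell in 8. The member rose and the partner fell in 14, and the member fell and the partner rose in 4. Members as a set rose more often (25.7%) than they fell (7.05%), while partners fell more often (27.2%) than they rose (12.9%). Pairs with a risen member and a fallen partner would thus also occur without any link within pairs, and such a link was not tested. In 34 pairs the member rose and the partner did not pass, in 38 the partner fell and the member did not pass, and in 90 neither passed. By position r was 0.26 over 100 head-to-head pairs, 0.26 over 66 pairs with the member inside and -0.25 over 47 tail-to-tail pairs. In the 70 pairs that share no exon base the difference was called higher in 10 and lower in 3, and r was 0.24.

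**Figure D4:**
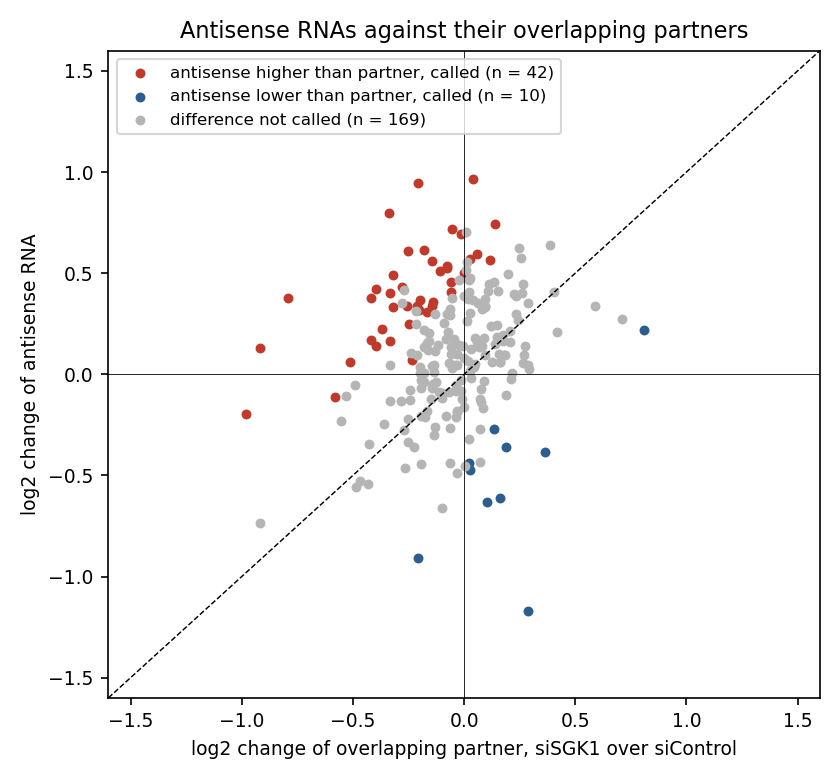
Log2 change of 221 antisense RNAs (vertical axis) against that of the overlapping gene on the other strand (horizontal axis), siSGK1 over siControl; colours mark the 42 pairs whose difference was called higher and the 10 called lower, and the dashed line marks equal changes. Most called pairs lie above the line, and the cloud has little slope (r 0.18).

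In the pairs with the smallest p, either gene could be the one that moved. AL450992.2 had 5.31, 4.30 and 4.48 FPKM in siSGK1 and 3.99, 3.20 and 3.30 FPKM in siControl. THEM5, a thioesterase gene whose end it overlaps, had 13.4, 11.8 and 13.95 FPKM in siSGK1 and 23.0, 25.3 and 20.8 FPKM in siControl. The antisense RNA rose by 0.38 and THEM5 fell by 0.79 on the log2 scale, a difference of 1.17 (SE 0.14, adjusted p = 0.000832). The rise of AL450992.2 alone did not pass without siControl replicate 3 (adjusted p 0.0013 to 0.0885 over the alternatives). ENO1-AS1 was named for its rise and is not among the 5 higher pairs with the smallest p. At ENO1 the difference was 1.15 (adjusted p = 0.00377), where ENO1 itself had 869, 752 and 857 FPKM in siSGK1 and 973, 952 and 932 FPKM in siControl. At RFX2 the difference was 1.13 (adjusted p = 0.00254), with RFX2 lower by 0.34 and AC011444.1 higher by 0.80. AC018553.2 rose by 0.61 opposite IRX3, a homeobox gene that fell by 0.25, a difference of 0.86 (adjusted p = 0.00256). Both AC018553.2 and ENO1-AS1 had siControl means under 1 FPKM and passed the level threshold only through siSGK1.

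EXOC3-AS1 starts 2 bases from the start of EXOC3, which encodes a subunit of the exocyst, the complex that tethers secretory vesicles. It had 5.87, 5.68 and 6.34 FPKM in siSGK1 and 3.35, 3.80 and 3.17 FPKM in siControl. EXOC3 had 9.98, 9.27 and 10.2 FPKM in siSGK1 and 10.6, 10.3 and 9.79 FPKM in siControl. The antisense RNA was higher in all siSGK1 libraries (log2 change 0.72, adjusted p = 0.00017), while the groups overlapped for EXOC3 (-0.05, adjusted p = 0.468). The difference between the 2 genes was 0.77 (SE 0.12, adjusted p = 0.00254). ARRDC1-AS1, one of the 5 highest members, had 25.03, 23.3 and 24.1 FPKM in siSGK1 and 20.6, 17.8 and 18.7 FPKM in siControl. It rose by 0.34 and ARRDC1, an arrestin-domain gene, fell by 0.21, a difference of 0.55 (adjusted p = 0.00254).

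Of the pairs whose difference was lower, SBF2-AS1 and SBF2 differed most, by -1.46 (SE 0.14, adjusted p = 0.000124). AL928654.3 fell by 0.38 inside MTA1, a subunit of the NuRD chromatin complex that rose by 0.36, a difference of -0.75 (adjusted p = 0.00377). AP001453.2 fell by 0.36 opposite PPP1R14B, a phosphatase inhibitor that rose by 0.19, a difference of -0.55 (adjusted p = 0.0103). Exons of the other strand hold 68.1% of the exon bases of AL928654.3 and 61.1% of those of AP001453.2, and neither fall passed with TPM scaling (adjusted p up to 0.269 and 0.153 over the alternatives). AC104126.1 and EPB41L4A differed by -0.74 (adjusted p = 0.00646). AL441992.1, among the 5 highest members, had 18.3, 20.8 and 22.4 FPKM in siSGK1 and 23.8, 27.0 and 23.6 FPKM in siControl, and it differed from ZER1, a ubiquitin ligase receptor, by -0.40 (adjusted p = 0.0142). The fall of AL441992.1 alone did not pass without siSGK1 replicate 2 or 3 or siControl replicate 3, nor with total-read, TPM or quantile scaling (adjusted p 0.0119 to 0.474).

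GATA2-AS1 and UNC5B-AS1 moved in the same direction as their partners, while PDCD4-AS1 and PDCD4 moved unequally. GATA2-AS1 (ENSG00000244300, chr3:128489212-128502348, plus strand) starts inside GATA2, which encodes a zinc-finger transcription factor. It had 30.1, 29.1 and 30.01 FPKM in siSGK1 and 21.5, 22.5 and 21.1 FPKM in siControl, against 10.7, 9.91 and 10.5 FPKM in siSGK1 and 8.95, 8.31 and 8.36 FPKM in siControl for GATA2. Both rose, the antisense RNA by 0.45 (adjusted p = 0.00015) and GATA2 by 0.27 (adjusted p = 0.00437), and their difference was 0.18 (SE 0.10, adjusted p = 0.214). The difference at UNC5B was also 0.18 (SE 0.10, adjusted p = 0.203), where both fell. PDCD4-AS1 had 23.8, 21.7 and 22.4 FPKM in siSGK1 and 21.5, 22.7 and 20.4 FPKM in siControl, groups that overlapped, while PDCD4, an inhibitor of translation, fell by 0.23 (difference 0.30, adjusted p = 0.0368). The RefSeq start region of GATA2-AS1 (GRCh38.p14, chr3:128488953-128489252, plus strand) is shown as that of the highest member that rose with its partner, with GGGCGG and CCAAT, the letters of a CCAAT box, in capitals on either strand.
GATA2-AS1: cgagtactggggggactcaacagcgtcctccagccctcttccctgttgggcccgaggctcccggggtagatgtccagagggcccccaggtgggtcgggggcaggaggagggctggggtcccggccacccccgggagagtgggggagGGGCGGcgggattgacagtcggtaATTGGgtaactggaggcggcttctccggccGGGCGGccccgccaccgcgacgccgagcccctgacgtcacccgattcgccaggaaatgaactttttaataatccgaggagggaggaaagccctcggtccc

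**Figure D5:**
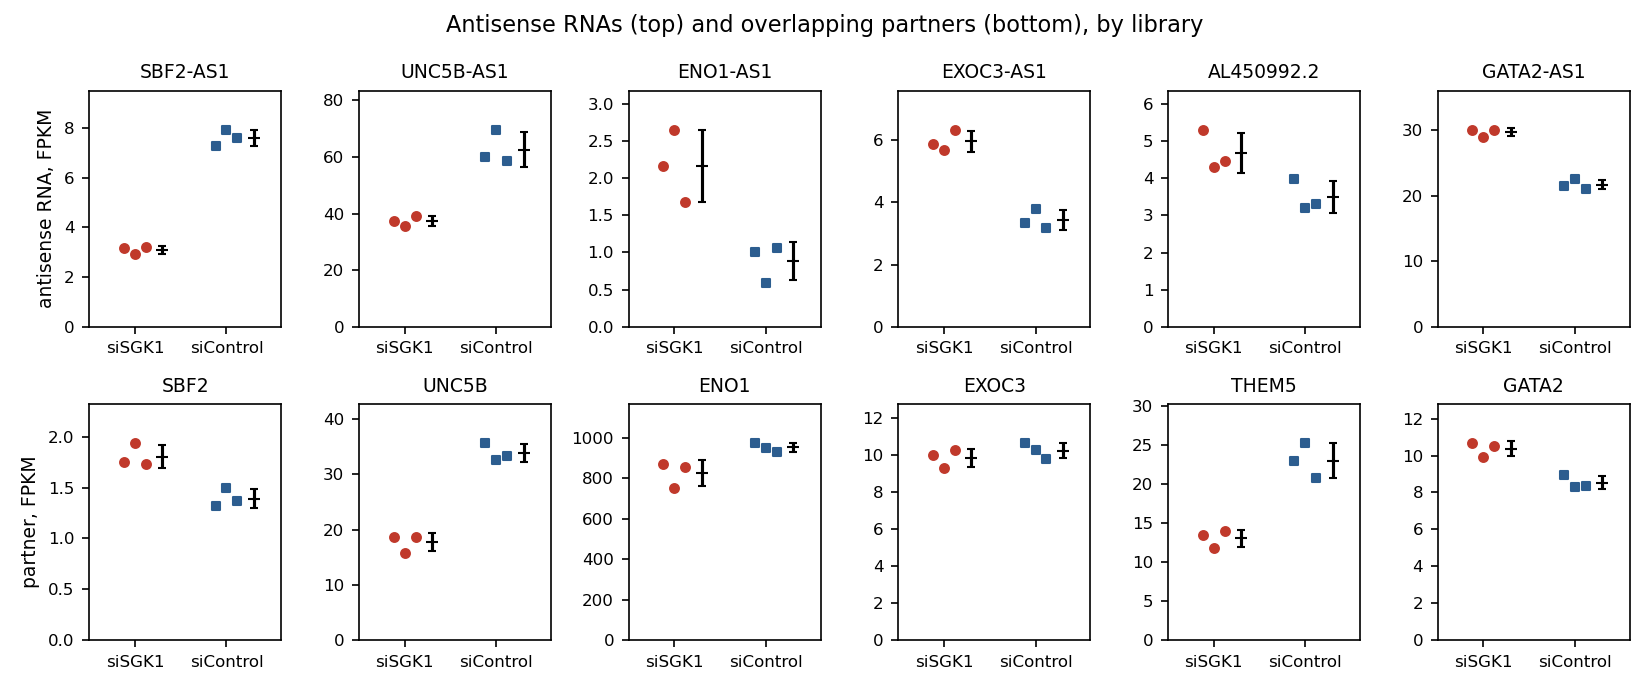
FPKM in each library of 6 antisense RNAs (upper row) and of their overlapping partners (lower row), siSGK1 left of siControl, with the mean and SD of 3 libraries beside the points and every axis from 0. SBF2-AS1 is lower and SBF2 higher in siSGK1, UNC5B-AS1 and UNC5B are both lower, EXOC3-AS1 is higher while EXOC3 overlaps between groups, and GATA2-AS1 and GATA2 are both higher.

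Divergent members, which share a promoter region but no bases with their partner, showed little relation to it. In 35 pairs with both genes tested, the median log2 change was 0.26 for the members and 0.02 for the partners, the sign was the same in 14 and r was 0.07. Both rose in 2 pairs, and the member rose while the partner fell in 2. AL139289.2 is 1 of those where both rose. It starts 297 bases from the start of CDC20, the mitotic activator of the anaphase-promoting complex, and had 5.76, 5.66 and 7.23 FPKM in siSGK1 and 2.94, 3.62 and 4.15 FPKM in siControl. CDC20 had 135, 120 and 134 FPKM in siSGK1 and 100.8, 99.7 and 94.3 FPKM in siControl, with no overlap of the groups in either gene. AL139289.2 rose by 0.73 (adjusted p = 0.00203) and CDC20 by 0.40 (adjusted p = 0.000959).

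A list of 69 antisense RNAs with a studied role or locus held 18 members, of which 4 rose, 3 fell and 11 did not pass, with a median log2 change of 0.05. These counts are near the shares of all tested genes, 17.9% and 22.7%. TMPO-AS1, which starts inside the nuclear lamina gene TMPO, had 2.41, 2.76 and 2.55 FPKM in siSGK1 and 1.76, 1.22 and 1.75 FPKM in siControl (log2 change 0.58, adjusted p = 0.0043), and TMPO rose by 0.26. FGD5-AS1 had 9.46, 9.53 and 9.01 FPKM in siSGK1 and 10.8, 11.8 and 10.8 FPKM in siControl. The groups were apart, with a fall of 0.24 (adjusted p = 0.00787) that did not pass with total-read or TPM scaling (0.0015 to 0.514 over the alternatives). GATA2-AS1, ARRDC1-AS1 and HOTAIRM1 were the other rises, and SBF2-AS1 and HOXC-AS1 the other falls. The members that did not pass were ATP2A1-AS1, FOXD3-AS1, HOTAIR, HOXA11-AS, HOXB-AS3, LOXL1-AS1, NNT-AS1, PSMA3-AS1, PTOV1-AS1, THAP9-AS1 and UBL7-AS1. With TPM scaling 5 of these, ATP2A1-AS1, HOXB-AS3, NNT-AS1, PTOV1-AS1 and UBL7-AS1, passed as higher.

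The HOX clusters, whose homeobox genes set positional identity, held 9 members, chosen by name or partner after their values were seen. Of these 3 rose, 1 fell and 5 did not pass, where 17.9% of all tested genes rose and 22.7% fell. A difference from those shares was not tested. HOXC13-AS averaged 12.6 ± 1.34 FPKM in siSGK1 and 8.55 ± 0.70 FPKM in siControl (SD, n = 3 each; log2 change 0.53, adjusted p = 0.00157). HOTTIP, which is known to act on the distal HOXA genes, averaged 2.95 ± 0.20 FPKM in siSGK1 and 1.79 ± 0.14 FPKM in siControl (log2 change 0.59, adjusted p = 0.000533). Both differed from their partners HOXC13 and HOXA13, which did not pass, by 0.60 (adjusted p = 0.00464) and 0.53 (adjusted p = 0.0185). HOTAIRM1 rose by 0.27 (adjusted p = 0.0112). HOTAIR, which is known for its link to the Polycomb complex, had 0.91, 1.26 and 0.95 FPKM in siSGK1 and 1.48, 1.01 and 1.28 FPKM in siControl, and the groups overlapped. HOXA11-AS had 5.70, 5.25 and 5.61 FPKM in siSGK1 and 5.88, 5.58 and 6.59 FPKM in siControl, groups that overlapped too, while HOXA11 fell by 0.58, a difference of 0.47 (adjusted p = 0.0142).

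Genes that act on noncoding or paired RNA were counted beside the members. Of 31 tested genes of the nuclear exosome and its adaptors and of other RNA decay, 9 rose, 5 fell and 17 did not pass, with a median of 0.06, where 17.9% of all tested genes rose and 22.7% fell. EXOSC3, an exosome subunit, averaged 15.6 ± 0.56 FPKM in siSGK1 and 11.7 ± 0.33 FPKM in siControl (adjusted p = 0.000374), while EXOSC7, another subunit, averaged 12.7 ± 0.21 FPKM in siSGK1 and 17.2 ± 0.31 FPKM in siControl (SD, n = 3 each; adjusted p = 0.000147). Without siSGK1 replicate 2 the falls numbered 3, and without siControl replicate 3 or 4 they numbered 2, while with TPM scaling, under which 47.3% of all tested genes rose, 20 of the 31 rose and 1 fell. Both the nuclear polyA-binding protein PABPN1 and the cap-binding subunit NCBP1 rose, by 0.35 and 0.32. Of 26 genes that bind, edit or sense double-stranded RNA, 16 rose, 2 fell and 8 did not pass, with a median of 0.23, beside the same shares of all tested genes (17.9% and 22.7%). The RNA-editing enzyme ADAR averaged 34.9 ± 0.91 FPKM in siSGK1 and 26.4 ± 0.97 FPKM in siControl (log2 change 0.40, adjusted p = 0.000304). The sensors OAS3, OAS2 and DDX58, which are interferon-induced, rose by 0.83, 0.70 and 0.77. The 2 falls became 1 or 0 without siSGK1 replicate 3 or 4 or siControl replicate 2 or 3, and with TPM scaling 22 of the 26 rose and 0 fell, beside 47.3% and 9.80% of all tested genes. The part of these genes in the changes of the antisense RNAs was not tested.

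Letters of common promoter elements were counted in member start regions. RefSeq gave 112 start windows for 90 members by symbol, of which 57 began within 100 bases of the table's gene start. On either strand GGGCGG was in 54.5% of these windows and in 44.9% of all 35116 promoters of the table, CCAAT in 30.4% and 34.6%, and TATAAA in 8.04% and 11.5%. These are counts of letters and were not tested.

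Heptamers that earlier results of these data had singled out in protein-coding genes were also counted in the spliced antisense RNAs. CTATGCA or TATGCAA, which overlap by 6 bases, was in 40 of 368 members, of which 5 rose and 3 fell, with a median log2 change of 0.03. Of the 328 members without it 90 rose and 23 fell, with a median of 0.15. Members with the heptamer were longer, with a median of 1870 bases against 831.5 without it, and the part of length was not tested. In lincRNAs 13 of 36 with it rose and 5 fell, with a median of 0.11. Of the 317 lincRNAs without it 83 rose and 32 fell, with a median of 0.15. TCGGAGA or CGGAGAA was in 42 members, of which 15 rose and 0 fell (0 also at an unadjusted limma p under 0.05 and with voom), with a median of 0.17, against 80 that rose and 26 that fell among the 326 without it. Members with it had a median length of 1747 bases, against 824.5 without it. Of 39 lincRNAs with it 19 rose and 6 fell, against 77 that rose and 31 that fell among the 314 without it. The sites in the 3 members that hold CTATGCA or TATGCAA and fell, 30 bases each from GENCODE 29 transcripts of GRCh38, are shown with the heptamers in capitals. A site was in 2 of 7 annotated transcripts of SBF2-AS1, in 1 of 4 of BBOX1-AS1 and in 2 of 5 of FGD5-AS1, so most transcripts of each lack it.
SBF2-AS1: aactcccaagaTATGCAAtgtacctataca
BBOX1-AS1: tcctcttagaaCTATGCAtctctcctgata
FGD5-AS1: ggcccggcccaCTATGCAAagcgccgggcg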

How the data were processed

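Per the labels' protocols, 6 libraries of ME180 polyA RNA were built with an NEBNext Ultra RNA kit. The authors deposited FPKM per gene with positions, length and biotype, made with bcl2fastq 2.19, HISAT2 2.0.5 and featureCounts 1.5.0-p3 on hg19, per the submitters' processing notes. The positions are nevertheless those of GRCh38: of 58039 identifiers shared with GENCODE 29, 97.6% had the same position. FPKM times length came out as whole reads, within 0.001, for 100% of values above 0.

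Here log2(FPKM + 0.5) was tested with limma 3.58.1 in R 4.3.3 (empirical Bayes with trend, two-sided, Benjamini-Hochberg over 11945 genes with a mean of at least 1 FPKM). Changes on this scale understate those of low genes. Pairs were tested on the within-library log2 difference, adjusted over 275 pairs. Called means an adjusted p under 0.05. P-values of genes are from limma.

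Named members are the 12 largest rises and 12 largest falls, members of the studied list, the 5 highest, 5 pairs per direction, and those at the threshold. Members and lists were chosen with earlier results of these data known. The value of 1 partner gene is not reported here.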

Additional observations from a re-analysis of the deposited data

How the results depend on the processing

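Members rose in 95 and fell in 26 cases with the settings reported. They rose and fell in 62 and 14 with no filter on low values, 21 and 13 of 58 at 5 FPKM or more, 149 and 15 with total-read scaling, 172 and 12 with TPM scaling, 132 and 9 with voom on recovered reads, and 30 and 9 of 147 sharing no exon base. Voom with size-factor scaling, chosen after seeing the data, gave 85 and 23. Leaving out each library gave 82 to 95 rises and 21 to 27 falls.

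Pair differences were higher in 42 and lower in 10, against 11 and 4 of 25 pairs at 5 FPKM or more, 8 and 2 of 70 refitted without shared exon bases, and 24 to 38 higher and 7 to 9 lower with each library left out. The exosome list gave 3 falls with no filter, 14 rises and 1 fall with total reads, 20 and 1 with TPM, 18 and 1 with voom, and 6 to 8 rises and 2 to 5 falls with a library left out. The double-stranded RNA list gave 0 falls with no filter, total reads, TPM and voom (limma; 2 as reported), and 0 to 2 with a library left out.

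Of 35 named calls 24 held in every alternative run and 11 did not, and no called change turned round. Pairs were not run with voom. Same-numbered libraries did not pair: correlations of their deviations were 0.12, 0.01 and -0.10, and not every library correlated best with its own number. With the replicate block 105 members rose and 27 fell, and pair differences were higher in 44 and lower in 10.

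Depth is a limit for low members: 33 had fewer than 20 reads per library, and 7 of these were called. Of 221 members that share exon bases, levels may be understated where the other strand holds them. The strand of reads is unknown for all members. Partner RNA that is unspliced, or that runs past the partner's annotated ends, cannot be told apart from a member lying there. With 3 libraries a group, limma p-values set a group difference against the spread between these libraries, moderated across the tested genes.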

Other observations

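Among the 8 overlapping pairs in which both genes rose and the 8 in which both fell, 4 outside the rule for named members are given here, chosen after their values were seen. SPINT1-AS1 had 16.2, 12.1 and 14.2 FPKM in siSGK1 and 17.3, 18.4 and 18.1 FPKM in siControl, opposite SPINT1, an epithelial protease inhibitor with 58.0, 51.2 and 56.5 FPKM in siSGK1 and 71.1, 63.4 and 63.3 FPKM in siControl. The groups were apart in both genes, and both fell, by 0.34 and 0.25 on the log2 scale (limma adjusted p = 0.0178 and 0.0144). AC119427.1 and LAD1, a gene of the epithelial anchoring filaments, fell by 0.46 and 0.27 (adjusted p = 0.00412 and 0.0056). MYLK-AS1 had 5.73, 5.42 and 4.68 FPKM in siSGK1 and 3.81, 3.66 and 4.05 FPKM in siControl, and MYLK, the myosin light chain kinase gene, had 3.83, 4.08 and 3.78 FPKM in siSGK1 and 2.68, 2.92 and 2.86 FPKM in siControl. Every siSGK1 library was above every siControl library in both, with log2 changes of 0.41 and 0.40 (adjusted p = 0.0035 and 0.00107). RNASEH1-AS1 rose by 0.63 and RNASEH1, which encodes a nuclease of RNA in DNA hybrids, by 0.24 (adjusted p = 0.00253 and 0.00457). In none of these 4 pairs did the difference between the genes pass (adjusted p 0.11 to 0.99).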
